A study of Mus musculus with 8 samples.

Results

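c-Jun binding was examined around 8 genes that encode intermediate filament proteins, namely Vim, Nes, Krt8, Krt18, Krt7, Krt19, Lmna and Lmnb1. A peak belonged to a gene when the centre of the deposited interval lay within 50 kb of any of the gene's transcription start sites (TSSs) in the curated RefSeq annotation of the mouse genome build mm10. This rule selected 33 of 16166 peaks in EpiSCs and 18 of 6032 peaks in kEpiSCs, around 8 of 21000 protein-coding genes. Peaks that lay within 50 kb of both Krt8 and Krt18 were counted once (7 peaks in EpiSCs and 5 in kEpiSCs).

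EpiSCs are primed pluripotent cells derived from the post-implantation epiblast. The comparison was between wild type EpiSCs and kEpiSCs, which are EpiSCs that carry a lentiviral Klf4 transgene and were selected as a stable population. The paper describes an Oct4-GFP reporter as another transgene of kEpiSCs. Both were grown without feeders in medium with Activin A and bFGF, each at 20 ng/ml. The labels give the strain of the wild type c-Jun ChIP libraries as CBA/CaJ X C57BL/6J and name no strain for kEpiSCs. The study's methods describe another cross for EpiSCs, with OG2 males, and OG2 is the paper's name for the Oct4-GFP reporter. By those methods the reporter may not be particular to kEpiSCs. For each line 2 ChIP and 2 input libraries were sequenced, but 1 peak list was deposited per line, so no value per replicate was at hand, no difference between the lines could be tested, and a difference between lists cannot be told apart from a difference between libraries. The labels give c-Jun as the ChIP antibody, although their protocol text names an H3K27ac antibody. Each peak carries a fold enrichment, which is the ChIP pileup at the summit plus 1 over the local background plus 1. The number of ChIP reads at the summit was recovered from this fold enrichment and the deposited p-value, and its exact 95% Poisson interval was carried over to the fold enrichment. In the kEpiSC list 1 read added 0.775 to the pileup, and in the EpiSC list 1, and the background is on the same pileup scale. The intervals hold the background fixed and cover counting error only.

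Intermediate filaments are rope-like polymers that give cells and nuclei mechanical strength. Vimentin is the filament protein of mesenchymal cells, nestin that of neural progenitors, and keratins form obligate pairs of a type I and a type II chain in epithelia, whereas lamins line the inner face of the nuclear envelope. c-Jun is a basic leucine zipper protein of the AP-1 family that binds DNA as a dimer, most often at the sequence TGACTCA or TGAGTCA, here called an AP-1 site.

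The sequence at the summit is shown for 8 peaks that carried the largest fold enrichments of their gene, or were found in both lines, and that held an AP-1 site. Each line gives 121 bases centred on the EpiSC summit, read from the plus strand of RefSeq GRCm38 (mm10), with AP-1 sites in capitals.
Vim, 0.640 kb upstream, chr2:13573532-13573652: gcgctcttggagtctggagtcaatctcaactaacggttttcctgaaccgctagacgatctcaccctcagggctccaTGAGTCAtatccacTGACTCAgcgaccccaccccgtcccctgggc
Krt8, 1.20 kb upstream, chr15:102005408-102005528: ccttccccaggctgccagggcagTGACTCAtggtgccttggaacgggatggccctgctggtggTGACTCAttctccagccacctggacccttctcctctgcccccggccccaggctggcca
Between Krt8 and Krt18, 11.9 kb upstream of Krt18, chr15:102016303-102016423: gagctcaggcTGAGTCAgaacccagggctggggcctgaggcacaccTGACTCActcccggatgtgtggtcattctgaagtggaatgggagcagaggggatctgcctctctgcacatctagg
Krt7, 24.1 kb upstream, chr15:101388368-101388488: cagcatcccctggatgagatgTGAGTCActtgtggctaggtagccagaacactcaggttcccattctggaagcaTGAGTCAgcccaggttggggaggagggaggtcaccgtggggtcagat
Lmna, 505 bp upstream of the long transcripts, chr3:88503645-88503765: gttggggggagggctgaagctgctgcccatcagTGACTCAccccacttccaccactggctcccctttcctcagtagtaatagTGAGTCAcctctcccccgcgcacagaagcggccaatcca
Lmna, 257 bp into the short transcript, chr3:88493008-88493128: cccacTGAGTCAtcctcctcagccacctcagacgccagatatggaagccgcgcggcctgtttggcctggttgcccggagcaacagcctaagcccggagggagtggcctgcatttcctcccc
Nes, 15.8 kb downstream of the start, chr3:87986859-87986979: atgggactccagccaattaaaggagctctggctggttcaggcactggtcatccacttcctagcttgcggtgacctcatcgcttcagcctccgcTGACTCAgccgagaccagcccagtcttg
Krt19, 29.9 kb downstream of the start, chr11:100113693-100113813: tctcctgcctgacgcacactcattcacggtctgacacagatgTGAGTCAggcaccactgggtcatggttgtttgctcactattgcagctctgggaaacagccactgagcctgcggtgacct

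The first 5 of these sequences held a pair of AP-1 sites within 60 bp of the summit. Measured between their middle bases, the sites of a pair were 14 bp apart upstream of Vim, 40 bp apart upstream of Krt8, 36 bp apart between Krt8 and Krt18, 53 bp apart upstream of Krt7 and 49 bp apart upstream of Lmna. The Krt8 peak held 1 more site 126 bp further on, outside the printed stretch. The other 3 sequences held 1 AP-1 site each. A pair of further peaks is shown because they had sizeable fold enrichments in EpiSCs (12.5 and 8.33) and no AP-1 site. In the first, no match to the AP-1 site with fewer than 2 mismatches was found. The closest match in the second, with 1 mismatch, is in capitals. Near matches to other motifs were not searched for.
Between Krt8 and Krt18, 11.3 kb upstream of Krt18, chr15:102016799-102016919: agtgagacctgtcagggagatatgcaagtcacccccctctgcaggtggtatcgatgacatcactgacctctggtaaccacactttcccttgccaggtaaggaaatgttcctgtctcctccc
Lmna, 6.84 kb upstream of the long transcripts, chr3:88510063-88510183: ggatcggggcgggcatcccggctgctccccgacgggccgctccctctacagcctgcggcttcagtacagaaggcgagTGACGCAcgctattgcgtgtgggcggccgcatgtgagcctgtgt

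All 8 genes had at least 1 c-Jun peak within 50 kb in EpiSCs, where 50.7% of protein-coding genes had one. In kEpiSCs all 8 genes also had a peak, against 27.0% of protein-coding genes. The 8 genes were chosen with earlier results of these data known, so the shares set beside them here and below are description only. Within 10 kb, 5 of 8 genes had a peak in EpiSCs (Vim, Nes, Krt8, Krt19 and Lmna) against 21.8% of genes. In kEpiSCs 5 of 8 genes had a peak within 10 kb (Vim, Krt8, Krt18, Lmna and Lmnb1) against 8.27% of genes. The members differed widely in number of peaks. Krt8 and Lmna had 8 peaks each in EpiSCs, a number reached by 1.21% of genes, and Krt18 had 7, of which all were shared with Krt8. Nes and Lmnb1 had 5, Krt7 had 4, Krt19 had 2 and Vim had 1. In kEpiSCs Krt8 kept the highest number with 6 peaks, a number reached by 0.276% of genes, followed by Krt18 with 5 and Lmna with 4. Nes, Krt7 and Lmnb1 had 2 peaks in kEpiSCs, and Vim and Krt19 had 1.

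**Figure D1:**
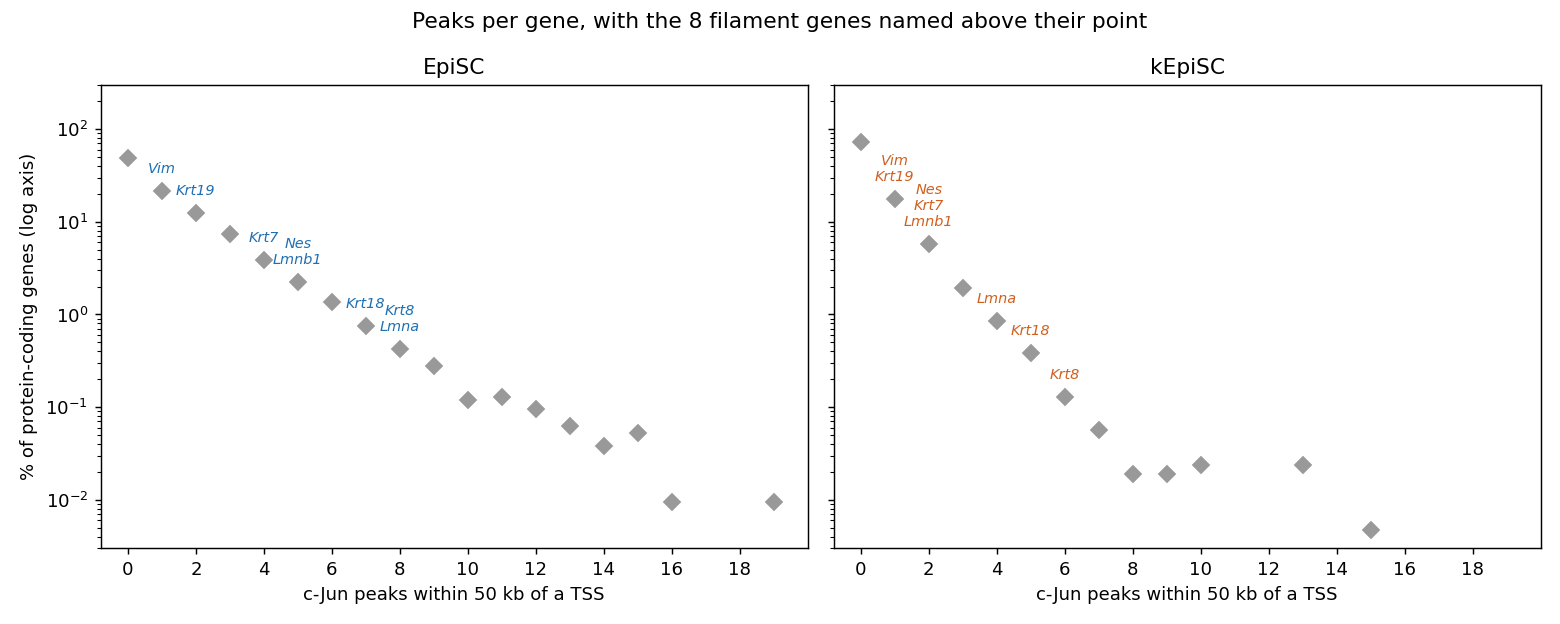
Share of 21000 protein-coding genes (vertical log axis, in %) by their number of c-Jun peaks within 50 kb of a TSS, for EpiSCs and kEpiSCs. Grey diamonds are all genes, and the 8 filament genes are named above the point for their number of peaks: Krt8 and Lmna sit at 8 peaks in EpiSCs, and Krt8 at 6 in kEpiSCs.

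A peak near a gene is not always nearest to that gene. The nearest protein-coding TSS was that of a member for 22 of 33 EpiSC peaks and 12 of 18 kEpiSC peaks. For none of the Krt7 peaks was Krt7 the nearest gene in either line, and in kEpiSCs the same was true of Nes and Krt19. Among the EpiSC peaks 6 were in a promoter (1000 bp before to 100 bp after a curated TSS), 5 in an intron, 1 in a coding exon and 21 between genes. The promoters of Rrnad1 and Mir1941, which are not members, were among the 6. Among the kEpiSC peaks 3 were in a promoter, 2 in an intron and 13 between genes. The matching shares over the whole lists are not given here, so these counts describe the member peaks only.

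**Figure D2:**
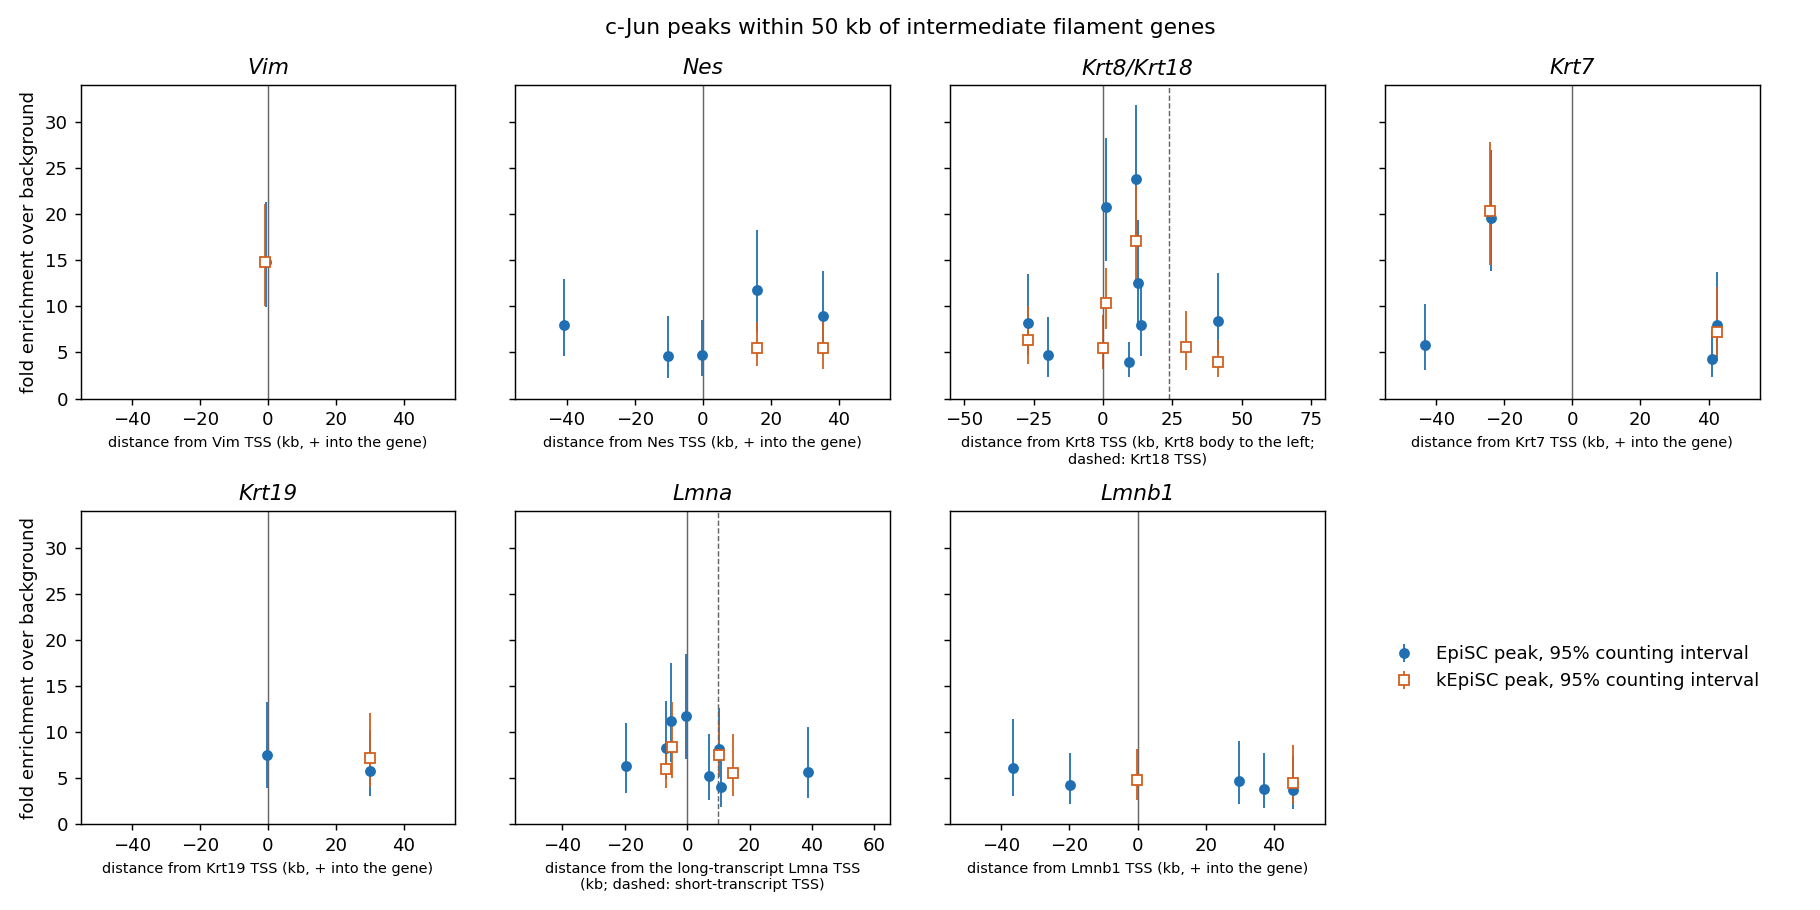
Fold enrichment of every c-Jun peak within 50 kb of a member (vertical axis) by the distance of its centre from the TSS (horizontal axis, in kb), with 1 panel per locus. Filled circles are EpiSC peaks, open squares are kEpiSC peaks and bars are 95% counting intervals: the highest values are at Krt8/Krt18, Krt7 and Vim, and Lmnb1 has values of 3.70 to 6.16.

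Vim, the gene of the mesenchymal filament protein vimentin, had a single peak, which lay in its promoter 640 bp upstream of the TSS (chr2:13573501-13573841). Its fold enrichment was 14.8 in EpiSCs, with 27 reads at the summit and a counting interval of 9.94 to 21.3. In kEpiSCs it was also 14.8, with 28 reads and an interval of 10.0 to 21.1. Both lists placed the summit on the same base, position 13573592 of chromosome 2, 19 bp from the nearer of the AP-1 sites shown above. In EpiSCs 1.82% of the list had a higher significance than this peak, and in kEpiSCs 3.15%.

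Nes, the gene of nestin, had 5 peaks in EpiSCs and 2 in kEpiSCs. The peak with the highest fold enrichment lay 15.8 kb downstream of the TSS, beyond the gene and 13.5 kb from the start of Bcan. It had a fold enrichment of 11.8 in EpiSCs (18 reads, interval 7.23 to 18.2) and 5.50 in kEpiSCs (20 reads, interval 3.49 to 8.31). The local background was 0.614 in EpiSCs and 2.00 in kEpiSCs, and its part in the difference was not tested. The other shared peak, 35.2 kb downstream, had 8.94 in EpiSCs and 5.54 in kEpiSCs. The Nes promoter itself held a weak peak in EpiSCs alone, 94 bp upstream of the TSS, with a fold enrichment of 4.70 on 9 reads and no AP-1 site. A peak 40.9 kb upstream with a fold enrichment of 7.94 lay 22 bp from the TSS of Rrnad1 and was found in EpiSCs alone.

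Krt8 and Krt18 encode the type II and type I keratins of simple epithelia, which pair with each other, and lie next to each other on chromosome 15 in divergent orientation. The stretch between them held the peak with the highest fold enrichment of all members in EpiSCs (chr15:102016154-102016469), 11.9 kb from the Krt18 TSS. Its fold enrichment was 23.8 in EpiSCs, with 44 reads and an interval of 17.4 to 31.8, and 0.0619% of the EpiSC list had a higher significance. In kEpiSCs it was 17.0, with 39 reads and an interval of 12.3 to 23.1, which overlaps that of EpiSCs.

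Another strong peak lay 1.20 kb upstream of the Krt8 TSS (chr15:102005359-102005733). Its fold enrichment was 20.8 in EpiSCs (interval 15.0 to 28.3) and 10.4 in kEpiSCs (interval 7.50 to 14.1). This was the only one of the 14 shared member peaks whose counting intervals did not overlap between the lines. The matching share over all shared peaks is not given here, so the count is not a trait of the members. The summit held 39 reads in both lists, each worth less in the kEpiSC pileup, and the local background was 0.921 in EpiSCs and 2.00 in kEpiSCs. The part of the read weight and of the background in the difference was not tested.

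Around these peaks the Krt8/Krt18 locus held further peaks of lower enrichment. In EpiSCs 2 peaks without an AP-1 site lay between the highest one and Krt18, at 11.3 kb from the Krt18 TSS with a fold enrichment of 12.5 (18 reads) and at 10.1 kb from it with 7.94 (14 reads). On the Krt8 side of the highest peak, 9.43 kb upstream of the Krt8 TSS, was a weaker one without an AP-1 site (fold enrichment 3.95, 17 reads). None of these 3 was in the kEpiSC list. Also absent from that list was a weak EpiSC peak 19.9 kb downstream of the Krt8 TSS (fold enrichment 4.76, 8 reads, no AP-1 site). A peak 26.8 kb downstream of the Krt8 TSS had 8.25 in EpiSCs and 6.31 in kEpiSCs, and one 17.6 kb downstream of the Krt18 TSS had 8.47 and 3.95. The kEpiSC list held 2 peaks that the EpiSC list lacked. One was centred on the Krt8 promoter 15 bp upstream of the TSS (fold enrichment 5.54, 13 reads, interval 3.18 to 9.12) and the other lay 6.15 kb downstream of the Krt18 TSS (5.56, 11 reads, interval 3.07 to 9.48).

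Krt7, a type II keratin of simple and glandular epithelia, had its main peak 24.1 kb upstream (chr15:101388034-101388665), where the nearest protein-coding TSS was that of Krt80, 18.2 kb away. The fold enrichment was 19.6 in EpiSCs and 20.3 in kEpiSCs, on 36 reads in each, with intervals of 13.9 to 26.9 and 14.4 to 27.8. This peak had the highest fold enrichment of all members in kEpiSCs, and 0.381% of that list had a higher significance. The other shared Krt7 peak, 42.6 kb downstream of the TSS and 7.27 kb from the Krt88 TSS, had 7.94 in EpiSCs and 7.21 in kEpiSCs. Of the 2 Krt7 peaks found in EpiSCs alone, one was in exon 5 of Krt88 (fold enrichment 4.32) and the other in the promoter of Mir1941, 1052 bp from the Krt80 TSS (5.82).

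Krt19, the type I keratin that often pairs with Krt7 or Krt8, had 2 peaks in EpiSCs and 1 in kEpiSCs. The promoter peak, 337 bp upstream of the TSS, had a fold enrichment of 7.53 in EpiSCs (10 reads, interval 3.97 to 13.3) and was not in the kEpiSC list. The peak 29.9 kb downstream of the TSS, which was 6.75 kb from the Krt13 TSS, had 5.82 in EpiSCs and 7.23 in kEpiSCs, with intervals of 3.07 to 10.3 and 4.08 to 12.1 that overlap widely.

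Lmna, which encodes the A-type lamins, had 8 peaks in EpiSCs and 4 in kEpiSCs. It has 2 groups of curated transcripts: the long ones start at position 88503352 of chromosome 3 and the short one at 88493312. The EpiSC peak at the promoter of the long transcripts (chr3:88503605-88504108) had a fold enrichment of 11.7, on 17 reads, with an interval of 7.12 to 18.4, and it was not in the kEpiSC list. Upstream of it, the peak at 5.14 kb had 11.2 in EpiSCs and 8.40 in kEpiSCs, and the peak at 6.84 kb had 8.33 and 6.02. The latter lay 261 bp upstream of the start of a predicted Lmna transcript in RefSeq. A peak in intron 1 of the long transcripts, 257 bp into the short one, had 8.22 in EpiSCs and 7.57 in kEpiSCs, on 19 and 28 reads. Weaker EpiSC peaks, absent from the kEpiSC list, lay 887 bp downstream and 2.96 kb upstream of the short start. They had fold enrichments of 4.01 and 5.24, on 6 and 8 reads. Within 10 kb of a Lmna TSS there were 6 EpiSC peaks and 4 kEpiSC peaks, more than for any other member. The 2 groups of Lmna starts cover more sequence with this window than a single start does. The 1 Lmna peak found in kEpiSCs alone lay in intron 1, 4.71 kb downstream of the short start, and had a fold enrichment of 5.61 on 10 reads.

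Lmnb1, which encodes the B-type lamin B1, is on chromosome 18 and had peaks of low enrichment. The 5 EpiSC peaks had fold enrichments of 3.70 to 6.16 on 6 to 9 reads, and none of them was within 10 kb of the TSS. In kEpiSCs 1 of 2 peaks was in the promoter, 169 bp upstream of the TSS, with a fold enrichment of 4.76 on 11 reads. The other, 45.8 kb downstream, was the only Lmnb1 peak in both lists, with 3.70 in EpiSCs and 4.51 in kEpiSCs. Of the EpiSC list, 52.7% to 97.4% of peaks had a higher significance than the Lmnb1 peaks.

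Ordered by the highest fold enrichment in EpiSCs, the members were Krt8 and Krt18 (the same peak, 23.8), Krt7 (19.6), Vim (14.8), Nes (11.8), Lmna (11.7), Krt19 (7.53) and Lmnb1 (6.16). In kEpiSCs the order was Krt7 (20.3), Krt8 and Krt18 (17.0), Vim (14.8), Lmna (8.40), Krt19 (7.23), Nes (5.54) and Lmnb1 (4.76). The counting intervals of each pair of neighbours in both orders overlapped. A highest value of at least that of Krt8 was found for 0.190% of genes in EpiSCs and one of at least that of Krt7 for 0.133% of genes in kEpiSCs. At the other end, 34.8% of genes had a peak at least as high as that of Lmnb1 in EpiSCs. The median over the 33 EpiSC member peaks was a fold enrichment of 7.53 and 11 reads, beside 6.16 and 10 reads over the whole list. Over the 18 kEpiSC member peaks it was 6.17 and 14.5 reads, beside 7.23 and 14 reads over the whole list. In the top 1% of their list by significance were 3 of 33 EpiSC member peaks and 2 of 18 kEpiSC member peaks.

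Of the EpiSC member peaks 14 of 33 overlapped a kEpiSC peak by at least 1 bp (42.4%, 95% Wilson interval 27.2% to 59.2%), and 28.3% of all EpiSC peaks did so. In the other direction 14 of 18 kEpiSC member peaks overlapped an EpiSC peak (77.8%, interval 54.8% to 91.0%), and 75.8% of all kEpiSC peaks did so. All 8 genes had at least 1 shared peak within 50 kb, and 21.6% of protein-coding genes did so. The shared EpiSC member peaks had a median fold enrichment of 8.70 and those found in EpiSCs alone one of 5.24. The matching medians over all EpiSC peaks are not given here, so this gap is not a trait of the members.

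Among the 14 shared peaks the fold enrichment was lower in kEpiSCs for 11, with a median log2 ratio of kEpiSC to EpiSC of -0.40 and a range of -1.10 to 0.31. Over all 4573 shared EpiSC peaks 56.8% were lower in kEpiSCs and the median log2 ratio was -0.10. The 3 member peaks that were higher in kEpiSCs were those of Krt7 at 24.1 kb upstream, Krt19 at 29.9 kb downstream and Lmnb1 at 45.8 kb downstream, with log2 ratios of 0.05, 0.31 and 0.29. The lowest ratios were -1.10 for the Nes peak at 15.8 kb and the Krt18 peak at 17.6 kb, followed by the Krt8 peak at 1.20 kb. These 3 peaks, and the Lmna peaks at 257 bp and 6.84 kb, were the 5 with a kEpiSC background of 2.00, and all 5 were lower in kEpiSCs. Over all shared peaks 8.03% had a kEpiSC background above 1.5. Of these 367 peaks 319 were lower in kEpiSCs as well, and their median log2 ratio was -0.71. For the 8 member peaks whose background was not higher in kEpiSCs the median log2 ratio was -0.07, beside 0.09 over all such shared peaks. The background is a term of the fold enrichment, so a split by background shifts these ratios by construction. The part of the background in the differences was not tested.

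**Figure D3:**
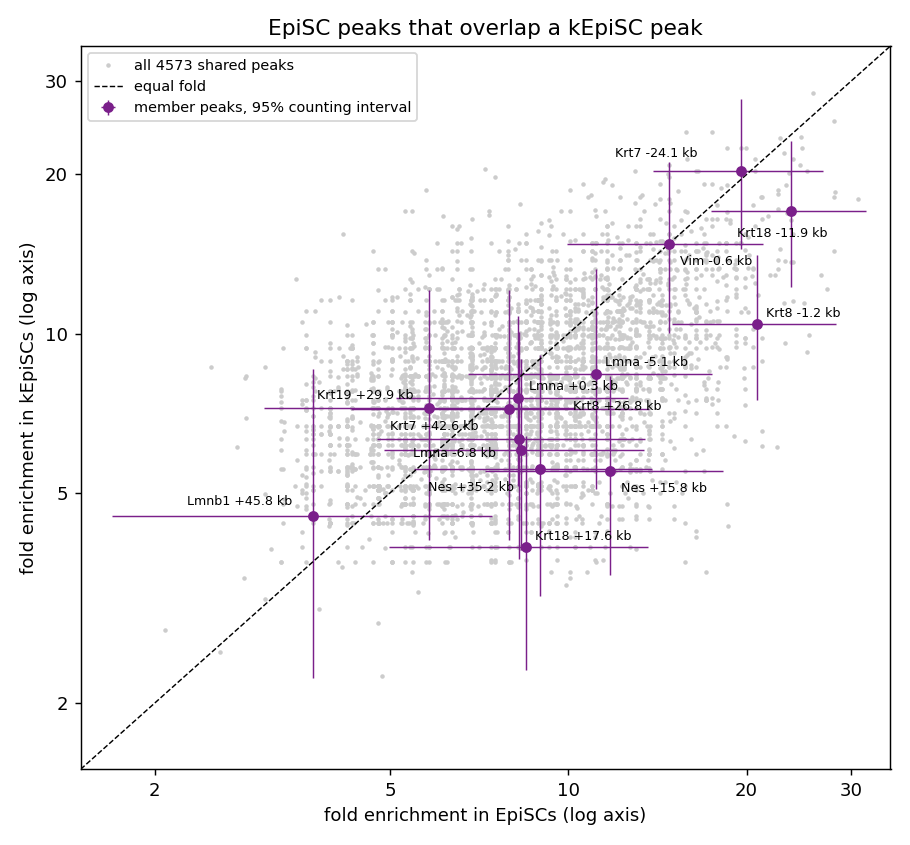
Fold enrichment in EpiSCs (horizontal log axis) and kEpiSCs (vertical log axis) of the 4573 EpiSC peaks that overlap a kEpiSC peak (grey) and of the 14 of them within 50 kb of a member (purple, with 95% counting intervals and the distance from the TSS of the named gene). The dashed line marks equal values: Vim and the Krt7 peak lie on it. The Krt8 peak at 1.20 kb upstream lies below it (20.8 and 10.4), on 39 reads in both lists. Its intervals, which hold the background fixed, do not overlap, and the matching share over all shared peaks is not given here.

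AP-1 sites were counted in the 200 bp around the centre of each peak, as TGACTCA or TGAGTCA, which are each other's reverse complement, so that 1 search covers both strands. In EpiSCs 12 of 33 member peaks held a site (36.4%, interval 22.2% to 53.4%), and 45.9% of all EpiSC peaks did so. In kEpiSCs 13 of 18 member peaks held one (72.2%, interval 49.1% to 87.5%), and 58.5% of all kEpiSC peaks did so. With any base in the middle of the motif (TGANTCA) the member counts were 12 and 14, and the shares over all peaks were 49.8% and 62.6%. The related motif TGACGTCA was found in 1 of 33 EpiSC member peaks, the one in exon 5 of Krt88, and in 2.13% of all EpiSC peaks.

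The sites were mostly in peaks common to both lines. Of the 14 shared EpiSC member peaks 11 held an AP-1 site (78.6%, interval 52.4% to 92.4%), and 59.1% of all shared EpiSC peaks did so. Of the 19 member peaks found in EpiSCs alone 1 held a site, the Lmna peak at 28.7 kb (5.26%, interval 0.935% to 24.6%), and 40.7% of all EpiSC peaks outside the kEpiSC list did so. The Lmna promoter peak added another when the whole peak was searched, since its pair of sites lay outside the central 200 bp. At least 2 sites were found in 5 of 33 EpiSC member peaks against 8.19% of the list, and in 2 of 18 kEpiSC member peaks against 13.6% of the list. Over the whole peak the counts were 6 of 33 against 11.4% and 4 of 18 against 16.8%. The 4 member peaks in the top 5% of each list by significance were the same 4 regions in both lines, namely those of Vim, Krt8, the Krt8/Krt18 interval and Krt7, and each held at least 2 sites. In the top 5% of each list as a whole 40.5% of EpiSC peaks and 47.4% of kEpiSC peaks did so.

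The distance between the summit and the middle of the nearest AP-1 site was measured in each peak that held one. In EpiSCs the median was 18 bp over 14 member peaks, with a range of 5 to 108 bp, and 23 bp over all 8247 peaks with a site. In kEpiSCs it was 19 bp over 13 member peaks, with a range of 2 to 47 bp, and 22 bp over all 3823 such peaks. A site lay within 50 bp of the summit in 11 of 14 EpiSC member peaks, against 79.3% of all EpiSC peaks with a site, and in 13 of 13 kEpiSC member peaks, against 81.4%. The 3 exceptions in EpiSCs were the Lmna peak at 257 bp, the Krt18 peak at 17.6 kb and the Lmnb1 peak at 45.8 kb, whose nearest sites were 52, 80 and 108 bp from the summit. RefSeq promoter windows run from 250 bases before to 50 after a start, and 5.20% of 32851 windows held an AP-1 site. Among the 6 members whose windows were read, only that of the long Lmna transcripts held one. The windows of Krt19 and Lmnb1 were not among those read.

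**Figure D4:**
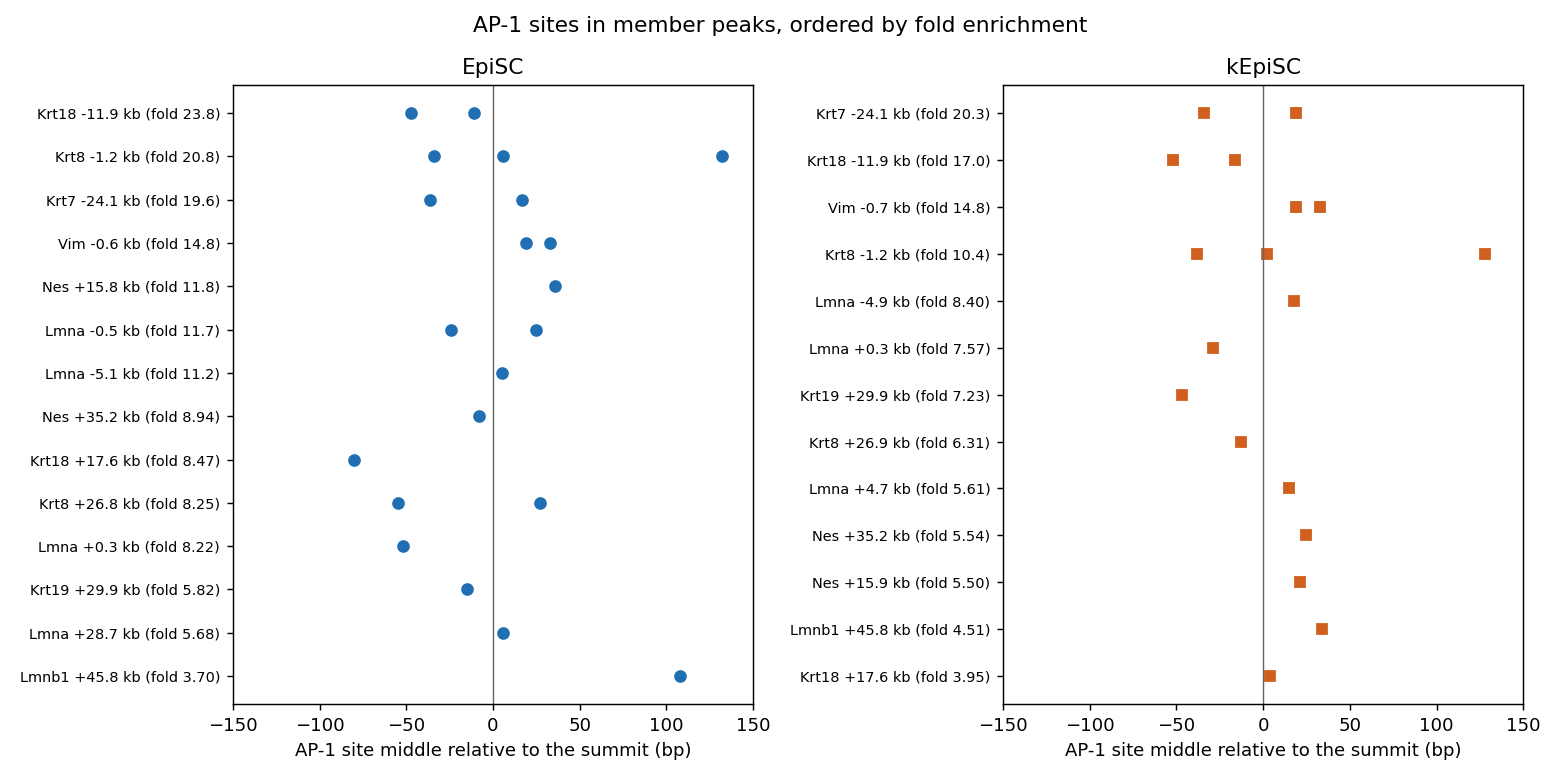
Position of each AP-1 site (middle base, in bp from the summit, horizontal axis) in the member peaks that hold one, for EpiSCs (circles) and kEpiSCs (squares). Peaks are ordered by fold enrichment, with the highest at the top: the 4 top EpiSC peaks hold 2 or 3 sites each, and 11 of 14 EpiSC peaks and 13 of 13 kEpiSC peaks have a site within 50 bp of the summit.

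Other genes of the filament system were read with the same window, beside 50.7% of protein-coding genes with a peak in EpiSCs and 27.0% in kEpiSCs. Of 23 other type I and II keratins, 21 had a peak in EpiSCs and 13 in kEpiSCs. These genes lie in clusters and share peaks, so that the 21 genes rested on 28 peaks and the 13 genes on 12. Some of these peaks are member peaks already described, so the counts are not independent of them. In kEpiSCs the only peaks of Krt13 and Krt15 (7.23), Krt86 (7.21) and Krt78 and Krt79 (6.31) were those of Krt19, Krt7 and Krt8. In EpiSCs the highest peak of Krt78 and Krt79 (8.25) was likewise that described for Krt8. In EpiSCs the highest were Krt80 (19.6, the peak described for Krt7), and Krt16 and Krt17, which share a peak of 14.4. In kEpiSCs they were Krt80 (20.3) and Krt10 (9.18), followed by Krt5, Krt6a and Krt6b, which share a peak of 8.87.

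Of 11 other cytoplasmic intermediate filament genes, 9 had a peak in EpiSCs and 3 in kEpiSCs. The highest fold enrichments in EpiSCs were those of Sync (syncoilin, 13.2), Prph (peripherin, 10.1) and Synm (synemin, 9.58), and in kEpiSCs those of Nefl (the light neurofilament chain, 12.5), Prph (11.0) and Sync (10.5). Of 16 linkers and desmosome genes, which anchor filaments to junctions, 15 and 9 had a peak. They were led by Pkp3 (plakophilin 3, 13.0), Dst (dystonin, 13.0) and Pkp2 (11.2) in EpiSCs and by Dsp (desmoplakin, 13.7), Pkp4 (10.1) and Dst (9.96) in kEpiSCs. Of 17 lamina and nuclear envelope genes 14 and 11 had a peak. Sun1, which spans the inner nuclear membrane, was highest in both lines (20.6 and 20.3), followed by Fntb (12.7) and Lmnb2 (11.6) in EpiSCs and by Lmnb2 and Syne3 (12.1 each) in kEpiSCs.

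At the edge of the 50 kb window, the farthest peak inside was the shared Lmnb1 peak at 45.8 kb. The nearest peak outside was found in EpiSCs 53.0 kb upstream of Krt19, with a fold enrichment of 9.91, and 5.65 kb from the Krt9 TSS. Between 50 and 100 kb the highest peak was 81.0 kb upstream of Krt7, with 14.9 in EpiSCs and 13.7 in kEpiSCs.

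Among the 5265 genes with a peak in both lines, the pair of highest fold enrichments most like that of Krt8 (23.8 and 17.0) was, after Krt18, that of 6 neighbouring genes that share 1 peak (22.6 and 17.2), namely Ano9, Hras, Lmntd2, Lrrc56, Ptdss2 and Rnh1. The likeness is the Euclidean distance of the log2 values over the 2 lists, which was 0.08.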

How the data were processed

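Mouse EpiSCs and kEpiSCs were profiled by c-Jun ChIP-seq in 8 libraries, 2 ChIP and 2 input libraries per line. The authors aligned the reads to mm10 with Bowtie2, used those with a unique position and ran MACS2 with its default settings. Also named in the submitters' notes are bcl2fastq, SAMtools and bedtools, all without a version. The deposited files hold 1 peak list per line. Its name stands in the label of ChIP replicate 1, and whether both replicates entered it is not stated. The values deposited for a peak are a score derived from the q-value, a fold enrichment (a ratio with 1 added to both terms), the p-value and the q-value as −log10, and the summit offset in bp. Because only significant peaks are listed, a missing peak is not a measured absence of binding. The total reads per library were not analysed here. How many reads lay at each summit, and the local background, were solved from the deposited fold and p-value with scipy 1.17.1 and matched the −log10 p-value within 0.01 for 100% of the peaks of both lists, with 1 read worth 1 in EpiSCs and 0.775 in kEpiSCs. The solver was tested on simulated peaks. Medians of 10 and 14 reads at the summit in EpiSCs and kEpiSCs limit the precision.

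TSSs, exons and sequences came from RefSeq GRCm38, the assembly behind mm10, with curated transcripts only, and sequence of the Lmnb1 locus is not reported here. Peaks overlapped when they shared at least 1 bp. With 1 list per line no test was made. Shares carry 95% Wilson intervals and reads exact 95% Poisson intervals. Described are all 8 members, the 3 genes per pathway list and line with the highest peak, the genes whose peaks were most like those of the highest member, and any gene that hosts or is nearest to a member peak. The members and the pathway lists were chosen with earlier results of these data known. Distances, TSS sets, peak thresholds, overlap rules and motif windows were varied one at a time.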

Additional observations from a re-analysis of the deposited data

How the results depend on the processing

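No paired analysis was possible because the deposited lists give no replicate values, which also left no replicate to leave out. Of 42 recomputed values 27 stayed within 1.5 times of the count given, or within the interval of the share given. With a window of 10 kb in place of 50 kb, 5 members kept a peak in each line (lost were Krt18, Krt7 and Lmnb1 in EpiSCs and Nes, Krt7 and Krt19 in kEpiSCs), the peaks numbered 11 in EpiSCs and 9 in kEpiSCs, and the shares of all genes with a peak were 21.8% and 8.27%. With 100 kb the peaks numbered 50 and 28. When a peak counted only where a member was the nearest protein-coding gene, 5 members kept one in kEpiSCs (Nes, Krt7 and Krt19 did not). In the higher-scoring part of each list by q-value the peaks numbered 18 in EpiSCs and 9 in kEpiSCs, and with a −log10 q-value of at least 5 they numbered 21 and 11. Allowing 1 mismatch raised the share of member peaks with an AP-1 site to 69.7% in EpiSCs and 94.4% in kEpiSCs, beside 78.3% and 86.4% of all peaks. Summits in place of centres, predicted transcripts, stricter overlap and other motif windows stayed within those limits. Counts of 6 to 44 reads at the summits limit each fold enrichment, and the EpiSC and kEpiSC lists differ in length, so a peak listed in 1 line alone can be near the threshold in the other.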

Other observations

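Farther from Krt7 than the window reached, at 75.6 to 82.7 kb upstream, lay a group of 3 EpiSC peaks that all overlapped kEpiSC peaks. Their fold enrichments were 10.1, 14.9 and 4.76 in EpiSCs and 5.15, 13.7 and 5.60 in kEpiSCs, and each EpiSC peak held 1 AP-1 site. Between 50 and 100 kb of Vim, the EpiSC list held no peak and the kEpiSC list held 2, at 73.8 and 93.4 kb upstream of the TSS next to and within Cubn, with fold enrichments of 5.06 and 8.32. Around Nes, a peak in intron 1 of Hdgf, 60.4 kb upstream of Nes, had a fold enrichment of 10.3 in EpiSCs and 7.57 in kEpiSCs and no AP-1 site.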
